A study of Mus musculus with 2 samples.

Results

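Antioxidant and glutathione enzymes are described here as 55 protein-coding genes among the 34745 genes of the count table. They were chosen by a rule on their GENCODE M21 symbols. The rule used no measured value, though the genes were chosen with earlier results of these data known. They comprise the glutathione S-transferases (Gsta, Gstk, Gstm, Gsto, Gstp, Gstt, Gstz and Mgst genes), the glutathione peroxidases (Gpx), the peroxiredoxins (Prdx), the superoxide dismutases (Sod), the thioredoxins and their reductases (Txn, Txnrd), and Cat, Nqo1, Gclc, Gclm, Gss, Gsr, Nfe2l2 and Keap1. The values come from 2 RNA-seq libraries of gastrocnemius, the large calf muscle, from C57BL/6 mice aged 8 weeks. The Cry2scko library carries that genotype name, which the labels do not spell out, and the Cry2flox library has the genotype Cry2flox/flox. Cry2 encodes cryptochrome 2, which holds back the core clock transcription factors, and floxed means that a recombinase can cut the allele out. The driver of any recombinase, the hour of collection and whether a library holds RNA of 1 animal or a pool are not given in the sources used here. The series title names loss of CRY2, PAX7 and satellite cells, and the comparison open to these libraries is how muscle RNA of Cry2scko differs from that of Cry2flox.

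Respiring muscle makes superoxide, which superoxide dismutases turn into hydrogen peroxide. Catalase, glutathione peroxidases and peroxiredoxins then remove the peroxide. The peroxidases and peroxiredoxins do so with electrons from glutathione or thioredoxin. Glutathione S-transferases join glutathione to reactive compounds, and the transcription factor NRF2 (Nfe2l2), held in check by KEAP1, is known to switch on many of these genes under oxidative stress.

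With 1 library per genotype there is no replicate, so no difference between animals was tested and there is no p-value. Each log2 ratio is Cry2scko over Cry2flox, from read counts scaled to library size, and its 95% interval is an exact interval for counting error only. Reads here carry no molecular identifiers and may be PCR copies, so the real error is larger than these intervals. Genes averaging at least 1 CPM (reads scaled by library size) over both libraries were compared. A gene was called when its difference reached 2-fold and its interval did not contain equality. By this rule 3.37% of the 12832 genes compared were higher and 1.51% lower in Cry2scko, 4.88% in all. The libraries held 16423884 reads (Cry2scko) and 18909433 reads (Cry2flox), and the 55 enzyme genes took 0.184% of the reads in Cry2scko and 0.181% in Cry2flox. Cry2 itself had 133 reads (8.04 CPM) in Cry2scko, against 676 reads (36.0 CPM) in Cry2flox, a log2 ratio of -2.16 (-2.44 to -1.89). Defining myofibre genes were abundant in both, with a summed level of 137395 CPM in Cry2scko and 144210 CPM in Cry2flox over 9 markers. In whole muscle, fewer cells of a type and less RNA per cell cannot be told apart.

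Most antioxidant and glutathione genes had nearly the same level in both libraries. Of 55 genes, 44 reached the level for comparison, and 2 of these 44 were higher, 0 lower and 42 neither, beside 3.37% higher, 1.51% lower and 4.88% in either direction over all genes. The higher genes were Gpx1, a glutathione peroxidase, and Mgst2, a membrane-bound glutathione transferase. The median log2 ratio of the 44 was -0.02, with quartiles of -0.14 and 0.21, beside -0.00 with quartiles of -0.17 and 0.18 over all genes compared. Within 1.5-fold lay 41 of the 44 genes (93.2%), against 87.2% of all genes compared. Counting intervals above a ratio of 1 were found for 12 of the 44 and intervals below 1 for 7, while over all genes compared 16.3% lay above and 17.3% below. Summed over all 55 genes the level was 1830 CPM in Cry2scko and 1822 CPM in Cry2flox. The log2 ratio of these sums was 0.01 (-0.02 to 0.03), so the total did not differ beyond counting error.

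**Figure D1:**
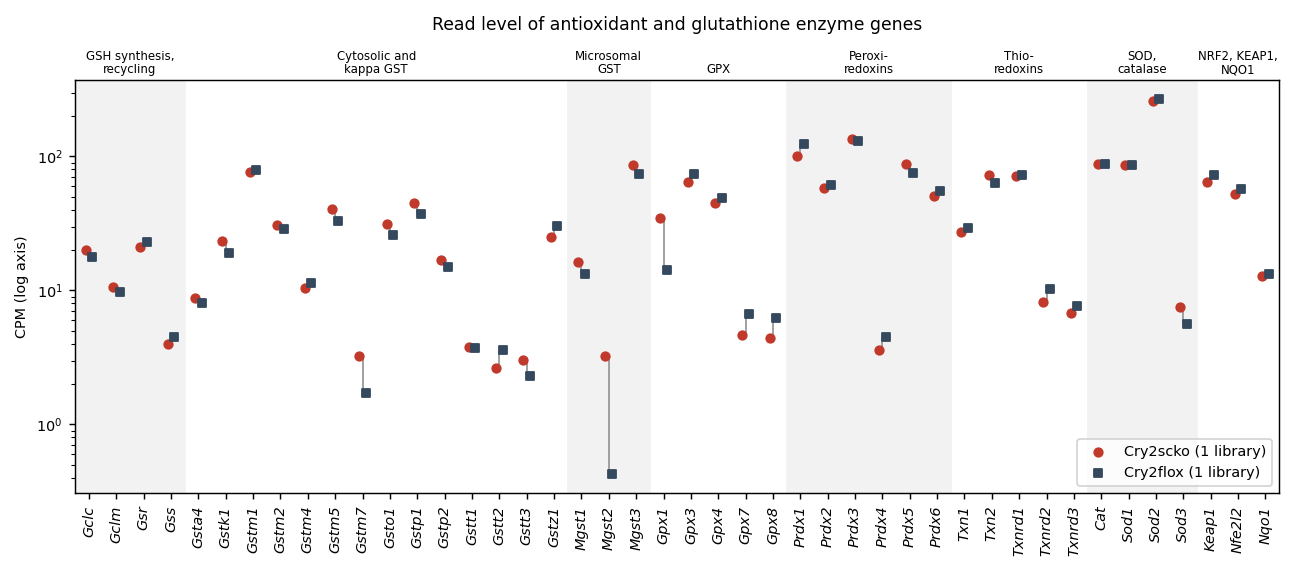
Level in CPM (log axis) of the 44 compared antioxidant and glutathione genes, grouped by role, with 1 point for the Cry2scko library (circle) and 1 for the Cry2flox library (square). Both points of a gene lie within 1.5-fold except for Mgst2 (3.265 CPM in Cry2scko and 0.426 in Cry2flox), Gpx1 (34.9 CPM in Cry2scko and 14.3 in Cry2flox) and Gstm7 (3.265 CPM in Cry2scko and 1.70 in Cry2flox).

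The remaining 11 genes were too low to compare. Gpx2, Gpx5, Gpx6, Gsta1 and Gstt4 had 0 reads in both libraries, which allows up to 0.181 CPM in Cry2scko and 0.160 CPM in Cry2flox, taking 3 reads as the limit. Gpx2 is known from the gut and Gpx5 from the epididymis. Gsta2 and Gstm3 had 0 reads in Cry2scko and 2 in Cry2flox, and Gstm6 had 2 in Cry2scko and 0 in Cry2flox. Gsta3 had 4 reads in Cry2scko and 5 in Cry2flox, and Gsto2 had 3 in Cry2scko and 1 in Cry2flox. Gstp3 was the exception among these low genes, with 8 reads in Cry2scko and 0 in Cry2flox. Set against the limit of 3 reads, it was 3.03-fold higher in Cry2scko, without the counting error of its 8 reads. The exact interval for its log2 ratio began at 0.95.

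Glutathione peroxidases reduce hydrogen peroxide and lipid peroxides. In some of them the active site is selenocysteine, which is written in the messenger by TGA, elsewhere a stop codon. A TGA inside the reading frame, annotated as selenocysteine, was found in 7 of the 55 genes (Gpx1, Gpx2, Gpx3, Gpx4, Txnrd1, Txnrd2 and Txnrd3). The coding sequences around the active site are shown because Gpx1, the called gene, shares this codon with relatives that were not called. Each line is 27 bases of the GENCODE M21 transcript (sense strand, GRCm38), with the active-site codon in capitals.
Gpx1: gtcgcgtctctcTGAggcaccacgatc
Gpx3: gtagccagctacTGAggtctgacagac
Gpx4: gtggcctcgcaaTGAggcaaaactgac
Gpx7: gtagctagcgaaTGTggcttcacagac
Gpx8: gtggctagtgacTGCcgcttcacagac
Gpx1, Gpx3 and Gpx4 carry TGA at codons 47, 73 and 129 of the coding sequences used, while Gpx7 has the cysteine codon TGT at codon 56 and Gpx8 the cysteine codon TGC at codon 79.

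Gpx1, the cytosolic and mitochondrial peroxidase (ENSMUSG00000063856, GRCm38 chromosome 9, 108338903 to 108340343, plus strand), had 577 reads (34.9 CPM) in Cry2scko and 269 reads (14.3 CPM) in Cry2flox. The gene was 2.43-fold higher, a log2 ratio of 1.28 (1.07 to 1.498), and 1.77% of all genes compared had a higher ratio. Gpx3, the peroxidase secreted into plasma, had 1061 reads (64.2 CPM) in Cry2scko and 1401 reads (74.6 CPM) in Cry2flox, at -0.22 (-0.33 to -0.10). Gpx4, which removes lipid peroxides and restrains ferroptosis, had 741 reads (44.8 CPM) in Cry2scko and 916 reads (48.8 CPM) in Cry2flox, at -0.12 (-0.26 to 0.02). Gpx1 thus stood apart from both selenocysteine relatives in muscle. The transcript of the pseudogene Gpx4-ps2 is 99.7% identical to Gpx4 over 762 bases, so the Gpx4 count is less certain. Over the 6 compared genes with an in-frame TGA, 1 was higher, 0 were lower and the median log2 ratio was -0.15.

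Gpx7 and Gpx8, which work in the endoplasmic reticulum where secreted proteins fold, were both below a ratio of 1 without passing the 2-fold rule. Gpx7 had 77 reads (4.66 CPM) in Cry2scko and 126 reads (6.71 CPM) in Cry2flox, a log2 ratio of -0.52 (-0.96 to -0.11). Gpx8 had 73 reads (4.41 CPM) in Cry2scko and 118 reads (6.28 CPM) in Cry2flox, at -0.51 (-0.95 to -0.08). Prdx4, the peroxiredoxin of the same compartment, had 59 reads (3.57 CPM) in Cry2scko and 84 reads (4.47 CPM) in Cry2flox, at -0.32 with an interval of -0.83 to 0.17 that included 0. Among 10 fibroblast and tendon markers, 5 were lower (Col1a1, Comp, Fmod, Thbs4, Tnmd), 5 neither and 0 had a ratio above 1, and their summed level was 887.5 CPM in Cry2scko and 1373 CPM in Cry2flox. No marker of that list was at 0, and its part in the Gpx7 and Gpx8 values was not tested.

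The surroundings of Gpx1 bear on its count. Rhoa, a GTPase gene on the same strand, ends upstream of Gpx1 at position 108337934. It had 2130 reads (128.8 CPM) in Cry2scko and 2340 reads (124.6 CPM) in Cry2flox, at 0.05 (-0.04 to 0.13). Gm37401, on the opposite strand upstream of Gpx1, had 0 reads in both. Gpx1 shared no exon base with another annotated gene, and no other annotated transcript was near-identical to it. The gene length implied by the deposited FPKM values was 3412 bases for Gpx1, 2.37 times its merged exons of 1441 bases. The gene length used by the authors thus exceeds the annotated gene. Whether bases outside the annotated exons added reads of other genes was not tested. The promoter of Gpx1 is shown because it is the better counted of the called genes. The sequence is RefSeq GRCm38.p6, chr9:108338830-108339129, plus strand, with the 50 bases from the RefSeq start, which lies inside the GENCODE gene span, in capitals.
Gpx1: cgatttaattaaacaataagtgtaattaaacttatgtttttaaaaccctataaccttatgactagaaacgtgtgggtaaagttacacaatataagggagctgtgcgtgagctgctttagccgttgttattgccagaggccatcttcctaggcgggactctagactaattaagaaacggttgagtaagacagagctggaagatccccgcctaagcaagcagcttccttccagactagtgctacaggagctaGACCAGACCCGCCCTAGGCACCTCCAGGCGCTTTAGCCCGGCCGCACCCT

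**Figure D2:**
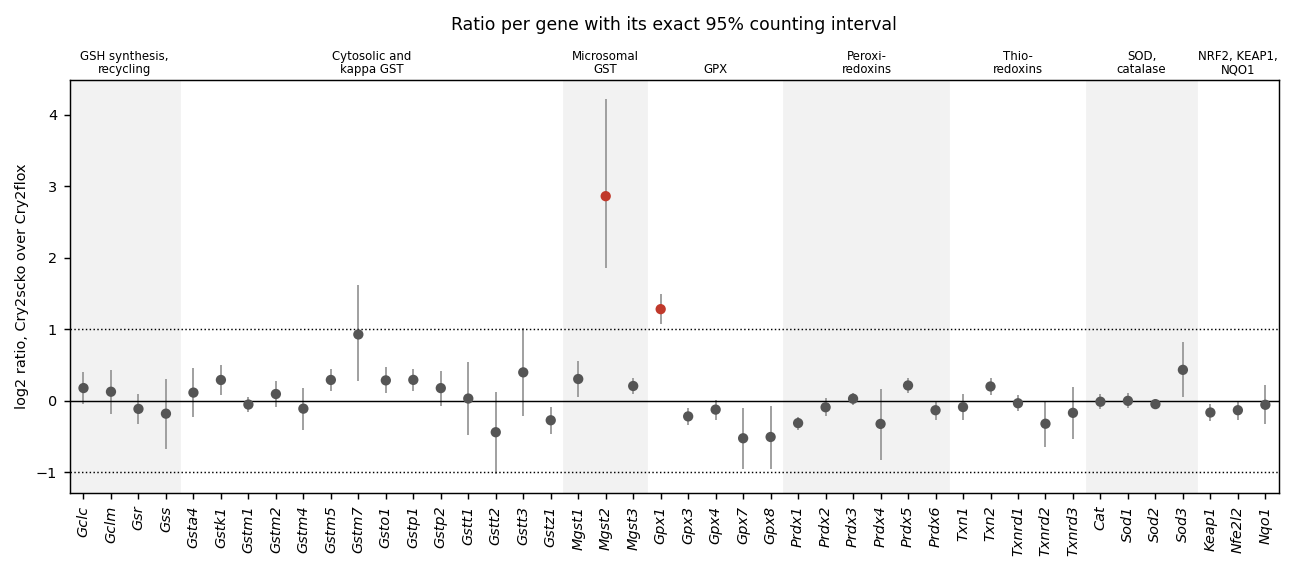
Log2 ratio of Cry2scko over Cry2flox for the 44 compared genes, grouped by role, with exact 95% counting intervals as bars and dotted lines at 2-fold. Gpx1 (1.28) and Mgst2 (2.86), in red, are the genes past the rule, and 41 of the 44 lie within 1.5-fold.

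All 3 microsomal glutathione transferases, enzymes embedded in intracellular membranes, were above a ratio of 1. Mgst2, which can make leukotriene C4 and reduce lipid hydroperoxides (ENSMUSG00000074604, chromosome 3, 51660360 to 51682677, plus strand), had 54 reads (3.265 CPM) in Cry2scko and 8 reads (0.426 CPM) in Cry2flox. It was 7.28-fold higher, a log2 ratio of 2.86 (1.86 to 4.22), and 9 of the 12832 genes compared had a higher ratio. The interval is wide because the Cry2flox value rests on 8 reads. The size of the ratio depends on the processing, at 2.01 on the log2 scale from the deposited FPKM values with 0.1 FPKM added and at 2.37 with 5 reads added to the counts. With a minimum mean of 5 CPM, Mgst2 was not compared. Maml3, a Notch coactivator gene on the other strand next to Mgst2, had 70 reads in Cry2scko and 68 in Cry2flox, at 0.22 (-0.28 to 0.73). Gm37261, which lies inside Mgst2, had 3 reads in Cry2scko and 4 in Cry2flox.

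The other members of this family differed less. Mgst1, an abundant detoxifying enzyme of liver, had 270 reads (16.3 CPM) in Cry2scko and 248 reads (13.2 CPM) in Cry2flox, at 0.31 (0.05 to 0.56). Mgst3, by far the most read of the family, had 1422 reads (86.0 CPM) in Cry2scko and 1398 reads (74.45 CPM) in Cry2flox, at 0.21 (0.10 to 0.32). Mgst2 therefore made up little of the summed level of the family, 105.6 CPM in Cry2scko and 88.1 CPM in Cry2flox. The Mgst2 promoter, shown for the largest ratio among the genes, is RefSeq GRCm38.p6, chr3:51660929-51661228, plus strand, with the 50 bases from the RefSeq start in capitals. This whole window lies inside the GENCODE gene span, which begins at 51660360.
Mgst2: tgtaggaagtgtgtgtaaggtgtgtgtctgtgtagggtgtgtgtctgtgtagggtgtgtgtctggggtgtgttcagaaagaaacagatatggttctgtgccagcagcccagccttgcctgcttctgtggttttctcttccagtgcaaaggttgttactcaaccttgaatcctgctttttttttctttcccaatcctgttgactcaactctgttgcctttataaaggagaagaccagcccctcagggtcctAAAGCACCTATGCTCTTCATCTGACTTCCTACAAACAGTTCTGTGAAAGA

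Cytosolic and kappa glutathione S-transferases leaned above a ratio of 1 by small amounts, and none passed the 2-fold rule. Of 22 genes, 14 were compared, and 10 had a ratio above 1 and 4 below, with a median log2 ratio of 0.15. Over all 12832 genes compared, 6350 had a ratio above 1. Their summed level was 322.6 CPM in Cry2scko and 299.2 CPM in Cry2flox, a log2 ratio of the sums of 0.11 (0.05 to 0.16). Gstk1, Gstm5, Gsto1 and Gstp1 had nearly equal ratios, each at 0.29 on the log2 scale with an interval above 0. Gstk1, a mitochondrial and peroxisomal enzyme, had 385 reads (23.3 CPM) in Cry2scko and 357 reads (19.01 CPM) in Cry2flox. Gsto1, an omega-class enzyme that also acts as a thiol reductase, had 521 reads (31.5 CPM) in Cry2scko and 485 reads (25.8 CPM) in Cry2flox. These 4 genes lie on chromosomes 3, 6 and 19.

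In the mu-class cluster on chromosome 3 (7 genes, 107895821 to 108044894, 149.1 kb), 5 genes were read well enough to compare. Gstm1, the main mu-class gene here, had 1260 reads (76.2 CPM) in Cry2scko and 1483 reads (79.0 CPM) in Cry2flox, at -0.05 (-0.16 to 0.06). Gstm2 had 511 reads (30.9 CPM) in Cry2scko and 543 reads (28.9 CPM) in Cry2flox, at 0.10 (-0.08 to 0.27). Gstm5 had 672 reads (40.6 CPM) in Cry2scko and 623 reads (33.2 CPM) in Cry2flox, at 0.29 (0.13 to 0.45), and Gstm4 had 173 reads (10.5 CPM) in Cry2scko and 212 reads (11.3 CPM) in Cry2flox, at -0.11 (-0.41 to 0.19). Gstm7 was the third-highest ratio of all 44 genes and the nearest to the 2-fold line, with 54 reads (3.265 CPM) in Cry2scko and 32 reads (1.70 CPM) in Cry2flox, at 0.93 (0.28 to 1.62). Neighbours in this cluster thus ran between 0 and 1260 reads in Cry2scko, and between 0 and 1483 reads in Cry2flox.

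Pi-class genes lie side by side on chromosome 19 (4035407 to 4059569, 24.2 kb). Gstp1 had 748 reads (45.2 CPM) in Cry2scko and 693 reads (36.9 CPM) in Cry2flox, at 0.29 (0.14 to 0.44). Gstp2 had 281 reads (17.0 CPM) in Cry2scko and 282 reads (15.02 CPM) in Cry2flox, at 0.18 (-0.07 to 0.42). Their transcripts are 98.2% identical over 707 bases, so reads can be placed on either gene and the split between them is uncertain. No near-identical transcript was found for Gstp3, the third gene of the cluster.

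Theta, zeta, alpha and omega genes completed the transferases. Gstt1, Gstt2 and Gstt3, theta-class genes within 63.3 kb of chromosome 10, had 63, 44 and 50 reads in Cry2scko and 70, 68 and 43 in Cry2flox, and all 3 intervals included 0. Their levels were 3.81, 2.66 and 3.02 CPM in Cry2scko and 3.73, 3.62 and 2.29 CPM in Cry2flox. Gstz1, which also breaks down tyrosine as maleylacetoacetate isomerase, had 412 reads (24.9 CPM) in Cry2scko and 565 reads (30.1 CPM) in Cry2flox, at -0.27 (-0.46 to -0.09). It was the only compared transferase whose interval lay below 0. Gsta4, which clears the lipid aldehyde 4-hydroxynonenal, had 145 reads (8.77 CPM) in Cry2scko and 152 reads (8.10 CPM) in Cry2flox, at 0.12 (-0.22 to 0.45).

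Glutathione synthesis and recycling genes showed no difference beyond counting error, since all 4 intervals included 0. Gclc, the catalytic subunit of the rate-limiting ligase, had 330 reads (19.95 CPM) in Cry2scko and 331 reads (17.6 CPM) in Cry2flox, at 0.18 (-0.05 to 0.40). Gclm, its modifier subunit, had 177 reads (10.7 CPM) in Cry2scko and 184 reads (9.80 CPM) in Cry2flox, at 0.13 (-0.18 to 0.43). Gss, which completes glutathione, had 66 reads (3.99 CPM) in Cry2scko and 85 reads (4.53 CPM) in Cry2flox, at -0.18 (-0.67 to 0.30). Gsr, the reductase that returns oxidised glutathione to its working form, had 351 reads (21.2 CPM) in Cry2scko and 431 reads (23.0 CPM) in Cry2flox, at -0.11 (-0.32 to 0.09).

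Peroxiredoxins, thiol enzymes that clear most cellular peroxide, had 6 genes compared, and none of the 6 passed the rule. Prdx1, the main cytosolic form, had 1662 reads (100.5 CPM) in Cry2scko and 2342 reads (124.7 CPM) in Cry2flox, at -0.31 (-0.40 to -0.22). Prdx5, found in mitochondria, peroxisomes and cytosol, went the other way with 1454 reads (87.9 CPM) in Cry2scko and 1422 reads (75.7 CPM) in Cry2flox, at 0.22 (0.11 to 0.32). Prdx3, the mitochondrial form, was closest to equal with 2216 reads (134.0 CPM) in Cry2scko and 2465 reads (131.3 CPM) in Cry2flox, at 0.03 (-0.05 to 0.11). Prdx2, abundant in red cells, had 956 reads (57.8 CPM) in Cry2scko and 1155 reads (61.5 CPM) in Cry2flox, at -0.09 (-0.21 to 0.04). Prdx6, which also has phospholipase activity, had 837 reads (50.6 CPM) in Cry2scko and 1041 reads (55.4 CPM) in Cry2flox, at -0.13 (-0.26 to 0.00). Summed over all 6, the level was 434.4 CPM in Cry2scko and 453.1 CPM in Cry2flox, a log2 ratio of the sums of -0.06 (-0.11 to -0.02).

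Thioredoxins, small proteins that keep peroxiredoxins reduced, and their reductases had no gene of 5 past the rule, and their median log2 ratio was -0.09. Txn2, the mitochondrial thioredoxin, had 1207 reads (73.0 CPM) in Cry2scko and 1192 reads (63.5 CPM) in Cry2flox, at 0.20 (0.08 to 0.32). Its reductase Txnrd2 had 136 reads (8.22 CPM) in Cry2scko and 193 reads (10.3 CPM) in Cry2flox, at -0.32 (-0.65 to 0.00). The cytosolic pair was closer to equal. Txn1 had 452 reads (27.3 CPM) in Cry2scko and 545 reads (29.0 CPM) in Cry2flox, at -0.09 (-0.27 to 0.10). Its reductase Txnrd1 had 1182 reads (71.5 CPM) in Cry2scko and 1374 reads (73.2 CPM) in Cry2flox, at -0.03 (-0.15 to 0.08). Txnrd3, which also carries a glutaredoxin domain and is known from testis, had 112 reads (6.77 CPM) in Cry2scko and 143 reads (7.62 CPM) in Cry2flox, at -0.17 (-0.54 to 0.20).

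Superoxide dismutases and catalase had nearly equal levels, with 3 of 4 genes close to a ratio of 1. Sod1, the copper and zinc enzyme of the cytosol, had 1432 reads (86.6 CPM) in Cry2scko and 1626 reads (86.6 CPM) in Cry2flox, at -0.00 (-0.10 to 0.10). Sod2, the manganese enzyme of mitochondria and the most read gene of all 55, had 4286 reads (259.1 CPM) in Cry2scko and 5024 reads (267.6 CPM) in Cry2flox, at -0.05 (-0.11 to 0.01). Cat, the peroxisomal catalase, had 1452 reads (87.8 CPM) in Cry2scko and 1663 reads (88.6 CPM) in Cry2flox, at -0.01 (-0.12 to 0.09). For these 3 genes both interval ends lay close to 0. Sod3, the extracellular form, was above a ratio of 1 with 125 reads (7.56 CPM) in Cry2scko and 105 reads (5.59 CPM) in Cry2flox, at 0.43 (0.05 to 0.82).

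**Figure D3:**
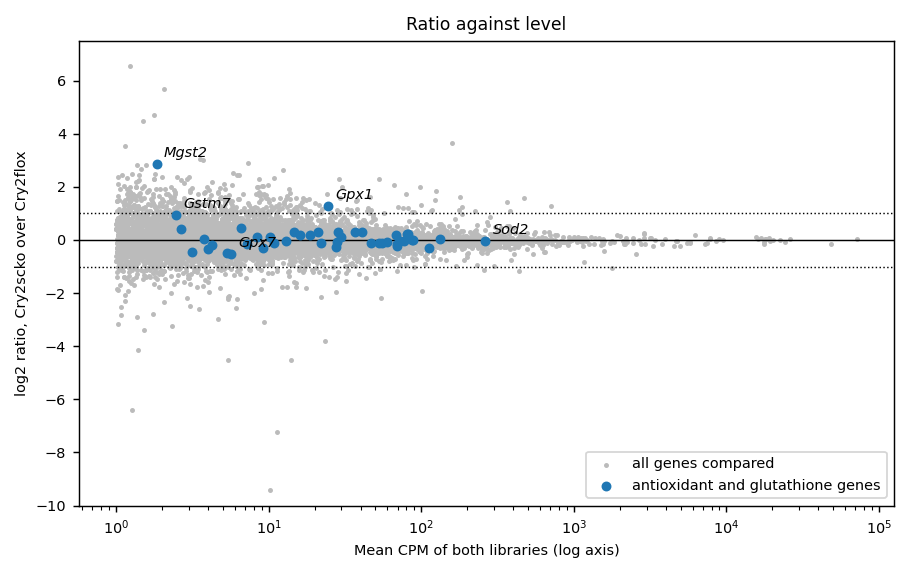
Log2 ratio of Cry2scko over Cry2flox against mean CPM (log axis) for all 12832 genes compared (grey) and the 44 antioxidant and glutathione genes (blue), with dotted lines at 2-fold. Gpx1 and Mgst2 lie above the upper dotted line, Gstm7 just under it, and the abundant genes such as Sod2 lie near 0.

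The regulators of the pathway were slightly below a ratio of 1. Nfe2l2, which encodes NRF2, had 870 reads (52.6 CPM) in Cry2scko and 1082 reads (57.6 CPM) in Cry2flox, at -0.13 (-0.26 to -0.00). Keap1, its inhibitor, had 1075 reads (65.0 CPM) in Cry2scko and 1367 reads (72.8 CPM) in Cry2flox, at -0.16 (-0.28 to -0.05). Nqo1, a quinone reductase that is induced by NRF2 and by the aryl hydrocarbon receptor, had 211 reads (12.8 CPM) in Cry2scko and 249 reads (13.3 CPM) in Cry2flox, at -0.06 (-0.33 to 0.21). All 3 lay within 1.5-fold of equal.

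A list of 22 further NRF2 targets gave mostly small ratios. Of 20 compared, 0 were higher, 1 was lower and 19 neither, with a median log2 ratio of -0.01. Fth1 and Ftl1, the ferritin chains that store iron and the list's most abundant genes, were at 0.12 (0.09 to 0.15) and 0.03 (-0.07 to 0.12). The lower gene was Osgin1, an oxidative stress-induced growth inhibitor, with 64 reads in Cry2scko and 263 in Cry2flox, at -1.85 (-2.27 to -1.46). Srxn1, which repairs overoxidised peroxiredoxins, was at -0.35 (-0.56 to -0.15) with 333 reads in Cry2scko and 483 in Cry2flox. Hmox1, the inducible haem oxygenase, was on the other side at 0.40 (0.08 to 0.73) with 170 reads in Cry2scko and 146 in Cry2flox. Further intervals below 0 were those of Blvrb at -0.67 (-1.24 to -0.13), Me1 at -0.35 (-0.45 to -0.26) and Abcc1 at -0.26 (-0.41 to -0.11). Only Fth1 and Hmox1 had intervals above 0, though 10 of the 20 ratios were above 1.

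NRF2 binds antioxidant response elements, so promoters of the genes were read for the element's letters in RefSeq windows of 300 bases (250 before the annotated start and 50 after it). Windows existed for 49 of the 55 genes, 63 windows in all. The core TGACNNNGC, on either strand, was in 9 of the 63 windows (14.3%), against 12.4% of the 32851 windows of all genes. The longer NRF2 and small MAF element TGANTCAGC, which contains the core when N is C, was in 3 of the 63 (4.76%), against 1.19% of all windows. It was chosen after values were seen. Its matches include the neighbouring genes Gstp1 and Gstp2, whose transcripts are 98.2% identical, so these matches are not independent. The clock's E-box CACGTG was in 2 of the 63 (3.17%), against 7.15% of all windows, and the matches were in Gpx6 and Prdx4. The windows with the longer element were those of Gstp1, Gstp2 and Prdx1, shown with the element in capitals (RefSeq GRCm38.p6, chr19:4037863-4038162 minus, chr19:4042172-4042471 minus and chr4:116685349-116685648 plus).
Gstp1: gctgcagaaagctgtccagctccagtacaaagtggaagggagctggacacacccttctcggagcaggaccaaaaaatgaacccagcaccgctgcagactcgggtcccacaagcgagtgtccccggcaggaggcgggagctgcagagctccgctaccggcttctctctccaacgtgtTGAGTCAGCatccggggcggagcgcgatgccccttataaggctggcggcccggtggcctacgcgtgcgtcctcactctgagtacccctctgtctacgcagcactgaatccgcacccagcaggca
Gstp2: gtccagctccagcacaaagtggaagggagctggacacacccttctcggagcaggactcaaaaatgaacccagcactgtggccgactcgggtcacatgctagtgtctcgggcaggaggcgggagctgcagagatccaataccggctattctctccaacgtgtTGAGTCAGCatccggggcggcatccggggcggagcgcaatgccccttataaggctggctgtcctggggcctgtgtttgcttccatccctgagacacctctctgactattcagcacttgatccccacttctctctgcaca
Prdx1: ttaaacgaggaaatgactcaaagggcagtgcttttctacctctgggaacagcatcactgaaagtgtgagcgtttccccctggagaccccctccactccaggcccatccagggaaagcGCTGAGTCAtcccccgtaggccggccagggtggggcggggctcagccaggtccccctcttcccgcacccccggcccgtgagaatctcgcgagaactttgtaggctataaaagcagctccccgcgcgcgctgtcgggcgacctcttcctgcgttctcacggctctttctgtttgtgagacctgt
Genes with this match did not share a direction, as Gstp1 and Gstp2 were at 0.29 and 0.18 and Prdx1 at -0.31. A match describes letters only and shows no binding.

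Wider lists of the same chemistry also had medians near 0. Among 34 other glutathione and thiol enzymes, 31 were compared, and 0 were higher, 1 was lower and 30 neither, with a median log2 ratio of -0.00. The lower gene was Gdap1, a glutathione transferase-like protein of the outer mitochondrial membrane, with 113 reads in Cry2scko and 443 in Cry2flox, at -1.78 (-2.10 to -1.49). Txnip, which binds and inhibits thioredoxin, had 5394 reads in Cry2scko and 4172 in Cry2flox, at 0.55 (0.50 to 0.61). Idh2, the mitochondrial isocitrate dehydrogenase that supplies NADPH, had 3202 reads in Cry2scko and 3020 in Cry2flox, at 0.27 (0.20 to 0.34). Among 19 selenoproteins and selenocysteine machinery genes, 18 were compared, and 1 was higher, 0 lower and 17 neither, with a median of 0.01. The higher gene was Eefsec, the elongation factor that delivers selenocysteine, with 83 reads in Cry2scko and 45 in Cry2flox, at 1.06 (0.53 to 1.62). Selenow, the abundant selenoprotein of muscle, was at 0.20 (0.16 to 0.23) with 13700 reads in Cry2scko and 13563 in Cry2flox, and Selenot, of the endoplasmic reticulum, at -0.05 (-0.12 to 0.02) with 2988 reads in Cry2scko and 3509 in Cry2flox.

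**Figure D4:**
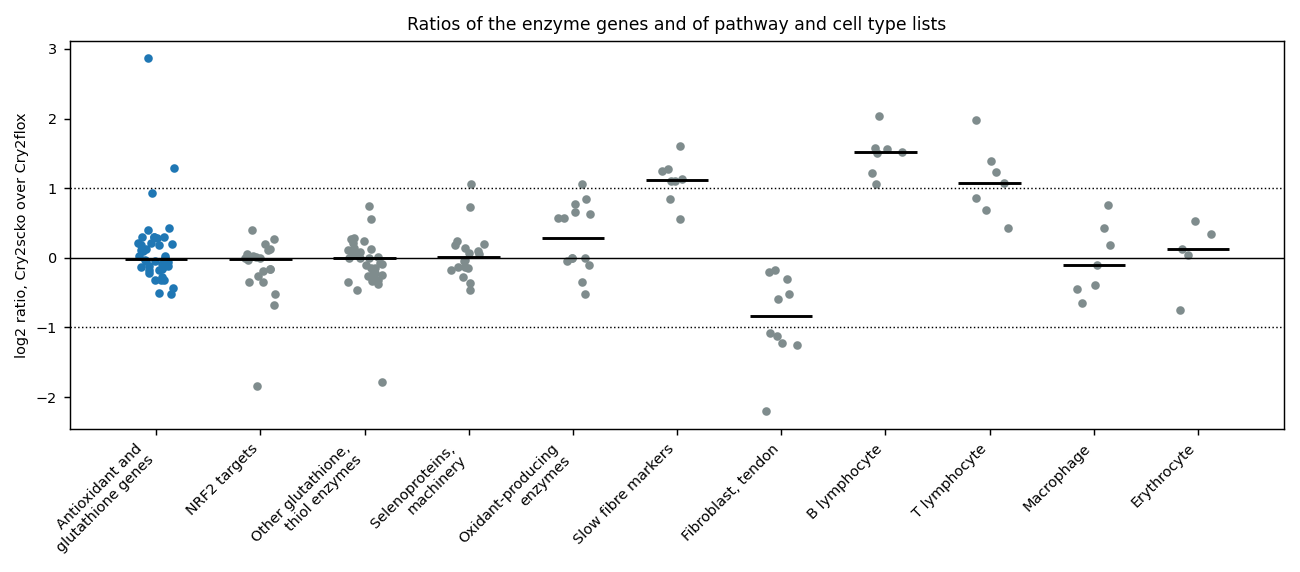
Log2 ratios of Cry2scko over Cry2flox for the 44 antioxidant and glutathione genes (blue), for lists of related pathways and for cell type markers (grey), with medians as black bars and dotted lines at 2-fold. The enzyme genes have a median of -0.02, while slow fibre (1.12), B lymphocyte (1.53) and fibroblast and tendon (-0.84) markers lie to either side.

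Levels between genes were compared per gene length, by the deposited FPKM values. Sod1 was highest, at 135.0 FPKM in Cry2scko and 133.1 FPKM in Cry2flox, and Prdx3 second at 91.3 FPKM in Cry2scko and 88.2 in Cry2flox. Mgst3 (78.9 FPKM in Cry2scko and 67.4 in Cry2flox) and Sod2 (68.2 FPKM in Cry2scko and 69.5 in Cry2flox) changed places between the libraries, with Gstp1 next at 60.2 FPKM in Cry2scko and 48.4 in Cry2flox. Gpx1 stood 23rd of the 55 genes in Cry2scko at 10.3 FPKM and 30th in Cry2flox at 4.17 FPKM. Gss was the lowest compared gene in Cry2scko at 0.499 FPKM, and Mgst2 the lowest in Cry2flox at 0.0805 FPKM. The order depends on the gene length used. With CPM per kb of the annotation's merged exons, 8 of the 10 highest genes in Cry2scko were the same, Prdx3 was highest at 90.7 CPM per kb, and Sod1 stood 14th at 21.8, because annotated exons of Sod1 (3970 bases) are longer than the length implied by its FPKM (646 bases).

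**Figure D5:**
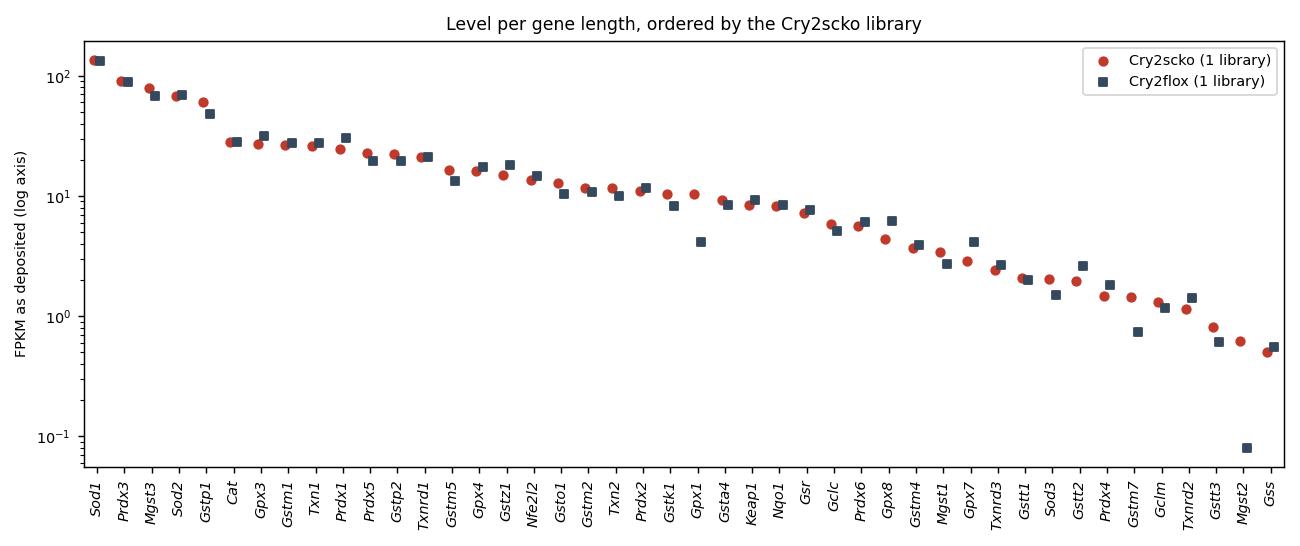
FPKM as deposited (log axis) of the 44 compared genes, ordered from high to low by the Cry2scko library (circles), with the Cry2flox library as squares. Sod1, Prdx3, Mgst3, Sod2 and Gstp1 lead in Cry2scko, and Gpx1, Gstm7 and Mgst2 show the widest gaps between libraries.

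Several cell type lists had medians further from 0 than the enzymes. All 7 B lymphocyte markers (among them Cd22, Cd79a, Cd79b, Fcer2a, Ms4a1, Pax5) were higher, with a summed level of 142.5 CPM in Cry2scko and 52.8 CPM in Cry2flox, and 4 of 7 T lymphocyte markers (Cd3e, Cd3g, Cd5, Cd8a) were higher, with 26.3 CPM in Cry2scko and 13.2 in Cry2flox. Of 8 slow fibre markers 6 were higher (Atp2a2, Myh7, Tnnc1, Tnni1, Tnnt1, Tpm3), with 2963 CPM in Cry2scko and 1397 CPM in Cry2flox. Macrophage markers had 0 of 7 past the rule (52.1 CPM in Cry2scko and 59.9 in Cry2flox), and erythrocyte markers 0 of 5 compared (57.7 CPM in Cry2scko and 47.2 in Cry2flox). Adipocyte markers had 1 of 8 lower, Adipoq, and 1 of 8 with a ratio above 1, with a median log2 ratio of -0.49. Their summed level, 657.8 CPM in Cry2scko and 666.0 in Cry2flox, is mostly that of Fabp4 and Plin4, which were at -0.02 and 0.09. Endothelial markers had 0 of 6 past the rule (425.8 CPM in Cry2scko and 440.3 in Cry2flox). No marker of the lymphocyte and slow fibre lists was at 0 in both libraries, and their part in the Gpx1 and Mgst2 values was not tested.

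Some of the counts above may hold reads of other genes. Near-identical transcripts of other genes (95% identity over 100 bases or more) were found for 13 of the 44 compared genes, and shared exon bases for 9. Neither was found for Gpx1 or Mgst2 in the GENCODE M21 annotation. The lengths implied by their deposited FPKM values exceed their annotated merged exons. They were 3412 against 1441 bases for Gpx1 and 5256 against 3703 bases for Mgst2. Whether bases outside the annotated exons added reads of other genes to these 2 counts was not tested. Sod2 shares 98.3% identity over 3110 bases with a transcript of the kinase gene Rps6ka2, which had 2092 reads in Cry2scko and 2473 in Cry2flox. Gstm2-ps1, a pseudogene whose transcript is 97.9% identical to Gstm1 over 657 bases, had 96 reads in Cry2scko and 94 in Cry2flox. Tdpx-ps1, 96.3% identical to Prdx2 over 597 bases, had 55 reads in Cry2scko and 45 in Cry2flox. On the opposite strand, 4933431E20Rik shares 178 exon bases with Gstm5 and had 36 reads in Cry2scko and 84 in Cry2flox. Junb shares 173 exon bases with Prdx2 and had 286 reads in Cry2scko and 394 in Cry2flox, and Acss2 shares 395 with Gss and had 539 reads in Cry2scko and 752 in Cry2flox.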

How the data were processed

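The deposited table gives whole-number read counts per Ensembl gene, not normalised, per the file headers. FPKM values, 1 file per library, were also deposited by the authors, per the file headers. CASAVA, HISAT2 2.0.4, StringTie 1.3.0 and GRCm38 are named in the submitters' processing notes, and libraries were made with a Vazyme kit, per the labels' protocols. The read counter, annotation release and strand setting are not given in the sources used here. Whether reads of overlapping genes on opposite strands were told apart is therefore not known.

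Symbols, exons and positions came from GENCODE M21 (GRCm38). Of 34745 gene IDs, 401 had no name and held 0.0272% of reads in Cry2scko and 0.0291% in Cry2flox. For library size, edgeR 4.0.16 in R 4.3.3 gave TMM factors, and 0.5 reads were added before the log2 ratio. At 1 CPM a gene has 16.5 reads in Cry2scko and 18.8 in Cry2flox. Intervals are Clopper-Pearson intervals (scipy 1.17.1). With 1 library per group no test was possible. The procedure was tested on simulated counts that held counting error only, with known library sizes. Changes were placed only in genes well above the level for comparison. Differences between animals, PCR copies and changes in low genes such as Mgst2 were not simulated. Near-identical copies were sought with BLAST 2.17.0 (95% identity over 100 bases). Alternatives were total-count and DESeq2 1.42.0 scaling, scaling without abundant genes, FPKM, other filters, added reads and folds, and leaving out genes with overlaps or copies.

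The genes and lists were chosen with earlier results of these data known. Compared enzyme genes are described by role. Of each pathway list the called genes are named, and the 2 most abundant where fewer than 2 were called. Some list genes are not reported here. Srxn1, Hmox1, Blvrb, Me1, Abcc1, the uncalled oxidase subunits, Nos2, Nos3, the monoamine oxidases and the motif TGANTCAGC were chosen after values were seen.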

Additional observations from a re-analysis of the deposited data

How the results depend on the processing

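No paired analysis was possible because each genotype has 1 library and no replicate numbers, and leaving out a library was likewise not possible. Gpx1 and Mgst2 were called under every scaling tried, with log2 ratios of 1.27 to 1.31 for Gpx1 and 2.01 to 2.89 for Mgst2. With a mean CPM of 5 or more, 1 enzyme gene (Gpx1) was called, because Mgst2 falls under that level. Without a filter there were 3 (Gstp3 added), and at a fold threshold of 1.5 also 3 (Gstm7 added). No enzyme gene was lower under any alternative. The median log2 ratio of the enzyme genes ran between -0.03 and 0.03.

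Over all genes, 432 were higher and 194 lower. Without a filter there were 789 and 396. A minimum mean of 5 CPM gave 175 and 76, and a fold of 1.5 gave 842 and 558, by construction. Without genes that share exon bases there were 270 and 121, from 8028 genes. With FPKM there were 311 and 116, and 0.1 FPKM added shrinks ratios of low genes. No scaling moved the median over all genes beyond 0.03. The Mgst2 ratio is limited by depth, with 8 reads in Cry2flox.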

Other observations

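Enzymes that make oxidants were looked at beside those that remove them. Of 18 listed, 14 were compared, and 1 was higher, 0 lower and 13 neither, with a median log2 ratio of 0.28. The higher gene was Ncf1, a cytosolic subunit of the phagocyte NADPH oxidase, with 176 reads in Cry2scko and 96 in Cry2flox, at 1.05 (0.69 to 1.43). Other subunits of this oxidase also lay above a ratio of 1, with the catalytic subunit Cybb at 0.77 (0.32 to 1.24), Cyba at 0.57 and Ncf4 at 0.85 (0.32 to 1.40). B lymphocyte markers were higher in the same library, 142.5 CPM in Cry2scko and 52.8 CPM in Cry2flox. Macrophage markers summed to 52.1 CPM in Cry2scko and 59.9 in Cry2flox but were split. Of these 7 markers, 3 had a ratio above 1, and their log2 ratios ran from -0.64 to 0.76. The part of both lists in the oxidase values was not tested. Nitric oxide synthases went the other way or stayed level, with Nos1, the muscle form, at -0.35 (-0.53 to -0.18), Nos2 at -0.52 (-0.91 to -0.15) and Nos3, the endothelial form, at -0.01 (-0.22 to 0.20). The monoamine oxidase Maob was at 0.65 (0.35 to 0.95) with 223 reads in Cry2scko and 161 in Cry2flox, and Maoa at -0.11 (-0.40 to 0.18).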
